A study of Mus musculus with 6 samples.

Results

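The genes described here are the ligands, receptors, intracellular mediators, antagonists and immediate targets of transforming growth factor beta (TGF-beta) and bone morphogenetic protein (BMP) signalling. They were chosen by gene symbol, and 55 of the 55291 symbols in the count tables matched. Of these, 50 had at least 1 read in some library and 45 passed the filter on low counts and were tested, among 17268 genes tested in all. RNA came from sorted cells of pubertal mammary glands of mice aged 6 weeks, and both abdominal glands of 5 mice were pooled for each of the 6 samples. All mice were Adgra3-lz/+ heterozygotes on an FVBN background, so every group carried the reporter allele, in which β-galactosidase is fused to the adhesion receptor Gpr125 (gene Adgra3) and is expressed from that gene's own locus. Cells with CD31, CD45 or Ter119 were removed and the rest were sorted for high surface CD49f and for β-galactosidase activity, read with the substrate FDG. The groups are Gpr_TEB, the FDG-positive cells of the distal part of the gland that holds the terminal end buds, Gpr_nipple, the FDG-positive cells of the part next to the nipple, and Gpr_neg, the FDG-negative cells, for which the labels give no region. There were 2 libraries in each group, called neg, TEB and nipple below after their labels, and "Gpr125+ libraries" stands for the 4 labelled TEB or nipple.

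Ligands of this family bind a pair of type II and type I receptor kinases. TGF-beta and activin receptors phosphorylate SMAD2 and SMAD3, BMP receptors phosphorylate SMAD1, SMAD5 and SMAD9, and either set enters the nucleus with SMAD4. Antagonists such as noggin, gremlin and follistatin hold ligands outside the cell, inhibitory SMADs and SMURF ligases limit the signal inside it, and the ID genes are among its immediate BMP targets. In the mammary gland TGF-beta is known as a restraint on duct growth, and BMP signalling takes part in the forming of the gland bud and in the exchange between basal and luminal cells.

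The libraries held between 20134890 and 37296640 reads assigned to genes. CPM are counts scaled by library size after TMM normalization, which balances the libraries by the trimmed mean of their gene-wise ratios. On this scale 3 reads correspond to 0.0645 to 0.147 CPM. That range converts a read count and is no estimate of error, and the libraries carry no molecular identifiers. Members took 0.165% to 0.207% of the reads of a library. Adgra3, which marks the sort, went against the labels, with 1658 and 550 reads (neg), 385 and 142 (TEB) and 391 and 262 (nipple). Scaled to CPM, it was at 35.7 and 18.6 (neg), 15 and 4.83 (TEB) and 19.2 and 12.3 (nipple). TEB thus lay below neg without overlap, while nipple overlapped with neg. The unadjusted edgeR p was 0.152 for TEB and 0.411 for nipple against neg. Adgra3 reads come from the intact allele as well as the reporter allele, and every direction given here rests on the labels. Replicates were far apart in the neg libraries, where the tested members differed between the replicates by a median of 1.33 on the log2 scale and 18 of 45 differed by more than 4-fold. The median difference was 1.11 between the TEB libraries, with 12 such members, and 0.692 between the nipple libraries, with 3. Across the tested members, Pearson's r of log2 CPM was 0.602 between the neg libraries, 0.746 between the TEB libraries and 0.914 between the nipple libraries, and 0.773 between neg 1 and nipple 1, which belong to different groups. These are correlations across genes, which are not independent replicates. Endothelial markers were present although CD31+ cells had been gated out. The summed level of 12 markers was 1390 and 851 CPM in neg, 20.5 and 21.8 in TEB and 241 and 27.7 in nipple. Pecam1, which encodes CD31, had 2017 and 1659 reads in neg, 63 and 158 in TEB and 550 and 51 in nipple, and Robo4 was at 0 in both TEB libraries. Epithelial markers were found in every library, with Epcam between 429.8 and 1072 CPM and Krt8 between 413 and 1659 CPM. The sum of 12 basal markers was 3390 and 3550 CPM in neg, 4020 and 23000 in TEB and 9450 and 15000 in nipple. In pooled cells of this kind, fewer cells of a type and less RNA per cell cannot be told apart.

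The BMP type I receptors Bmpr1a and Bmpr1b differed in level and in pattern across the groups, and the sequences before their RefSeq transcript starts (assembly GRCm38.p6) are shown for that reason. Each stretch is 250 bases long and reads 5′ to 3′ on the strand of the gene. Capitals mark CAGAC or GTCTG, the short site of SMAD3 and SMAD4, and GGCGCC, a GC-rich site of SMAD1 and SMAD5, searched on both strands.
Bmpr1a chr14:34502547-34502796 (minus strand): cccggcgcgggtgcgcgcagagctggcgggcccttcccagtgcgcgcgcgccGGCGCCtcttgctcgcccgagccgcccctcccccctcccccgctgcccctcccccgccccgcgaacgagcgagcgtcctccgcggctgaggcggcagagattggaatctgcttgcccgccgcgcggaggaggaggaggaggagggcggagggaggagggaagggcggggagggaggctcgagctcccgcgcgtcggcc
Bmpr1b chr3:141982265-141982514 (minus strand): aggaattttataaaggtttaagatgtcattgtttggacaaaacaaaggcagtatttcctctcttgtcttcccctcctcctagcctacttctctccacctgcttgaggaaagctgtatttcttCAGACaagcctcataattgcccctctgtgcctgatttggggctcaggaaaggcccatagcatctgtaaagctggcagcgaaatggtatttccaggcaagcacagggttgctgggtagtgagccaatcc
Bmpr1b chr3:141931589-141931838 (minus strand): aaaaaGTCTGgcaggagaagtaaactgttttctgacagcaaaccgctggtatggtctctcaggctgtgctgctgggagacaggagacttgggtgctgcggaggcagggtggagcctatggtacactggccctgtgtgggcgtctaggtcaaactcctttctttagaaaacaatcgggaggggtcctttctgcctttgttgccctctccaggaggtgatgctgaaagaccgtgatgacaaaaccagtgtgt
All stretches shown lie inside the annotated genes (Bmpr1a chr14:34410734-34503341 and Bmpr1b chr3:141837136-142169425, minus strand, GENCODE M21 on GRCm38). The Bmpr1a stretch was 78.8% G or C with 36 CG pairs and held a GGCGCC. The Bmpr1b stretches were 46.8% and 52.8% G or C with 1 and 5 CG pairs, and each held a copy of the CAGAC or GTCTG site. Another Bmpr1b start (chr3:141931421-141931670) overlaps the latter stretch and is not shown. Its stretch was 56.4% G or C with 5 CG pairs and held neither site. Promoters were given for 41 member genes, with 50 starts in all. The short SMAD site was found in 24 of these 50 (48.0%) and in 42.2% of the 32851 mouse promoters of the same length, and GGCGCC in 12 (24.0%) against 9.6%. These are matches of letters, not measured binding. The scanned promoters had a median of 52.4% G or C and 6 CG pairs, and many member stretches were richer in both. The comparison did not match base composition, and its part in the GGCGCC share was not tested. The 12 include overlapping Ltbp4 stretches (chr7:27333649-27333898 and chr7:27333664-27333913).

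The comparisons ask how the Gpr125+ cells of either region differ from Gpr125-negative cells of the same CD49f gate and how the Gpr125+ cells of both regions differ from each other. Both comparisons with neg use the same neg libraries. By the quasi-likelihood test of edgeR, fitted to the 6 libraries together, 0 of the 45 tested members passed a false discovery rate (FDR, Benjamini-Hochberg adjusted p) under 0.1 and a 2-fold change in any comparison, against a background of 0% of the 17268 tested genes in each. The smallest FDR of any gene was 0.485 for TEB against neg and 1 in the other comparisons. At an unadjusted p under 0.05, 3 members passed for TEB against neg (6.67%, with 6.05% of all tested genes), 3 for nipple against neg (6.67%, with 3.55%) and 0 for TEB against nipple (with 2.21%). With DESeq2 on the 4 compared libraries, 1 member was called for TEB against neg (4.33% of all genes with an FDR were called), 1 for nipple against neg (2% of all genes) and 3 for TEB against nipple (2.26% of all genes). The libraries of the groups did not overlap for 12 members for TEB against neg (26.7%, with 24% of all tested genes), 17 for nipple against neg (37.8%, with 30.6%) and 18 for TEB against nipple (40%, with 33.5%). With 2 libraries against 2, an exact permutation test of a single gene cannot go below 0.33. The median log2 fold change of the tested members was 0.11 for TEB against neg, -0.04 for nipple against neg and 0.14 for TEB against nipple, with medians of 0.03, -0.003 and 0.06 over all tested genes. For 21 of the 45 the fold change stayed within 1 on the log2 scale in every comparison.

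**Figure D1:**
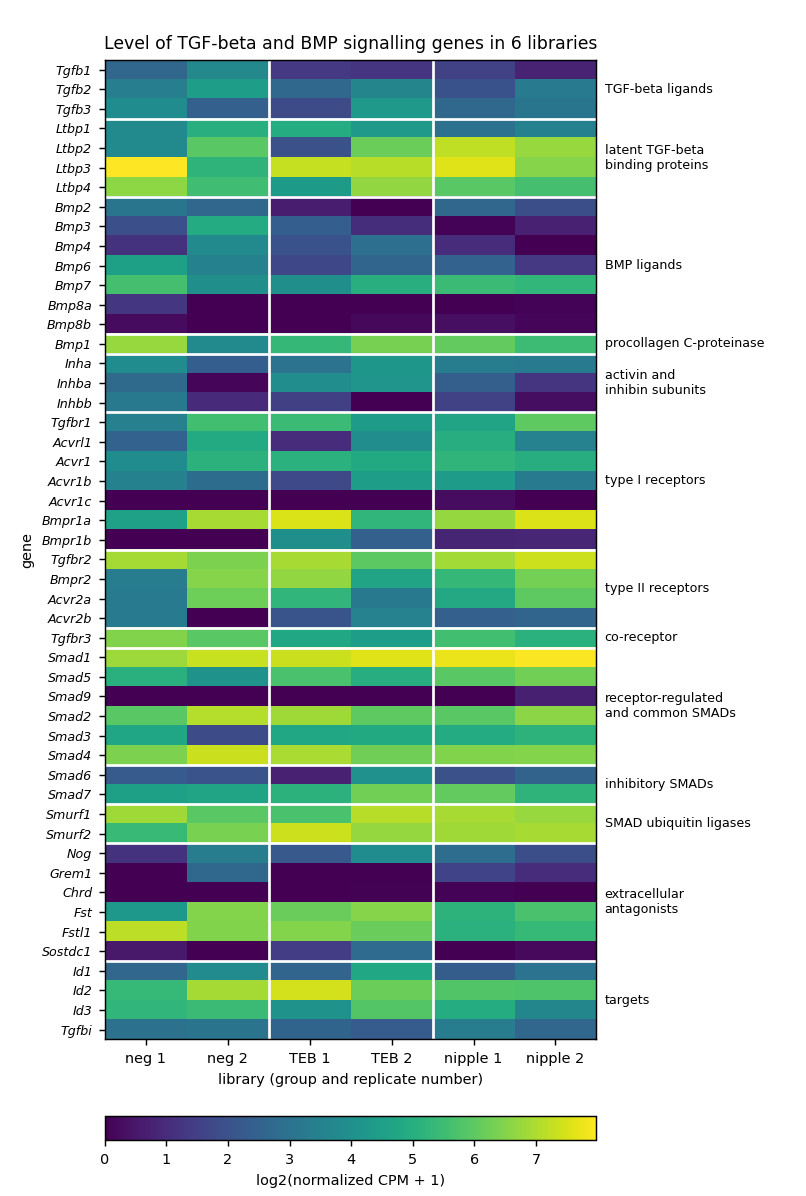
Heat map of log2(normalized CPM + 1) for the 50 members with at least 1 read (rows, grouped by role) in the 6 libraries (columns). Bmpr1b is near 0 in both neg libraries and highest in TEB 1, and several rows, Ltbp3 and Bmpr1a among them, differ more within the neg columns than between groups.

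Among the TGF-beta ligands, Tgfb1 (chr7:25687002-25705077) was lower in the Gpr125+ libraries, with 5.16 and 12.5 CPM (neg), 1.48 and 1.29 (TEB) and 1.96 and 0.753 (nipple). Each neg library lay above each of the 4 others. On the log2 scale the fold change was -2.67 ± 1.5 (SE, n = 2 per group, edgeR) for TEB against neg with an FDR of 0.915, and -2.70 ± 1.51 for nipple against neg with an FDR of 1. Tgfb2 was at 9.68 and 20.8 CPM (neg), 5.46 and 11.4 (TEB) and 3.04 and 8.85 (nipple). The nipple libraries were below both neg libraries, while TEB 2 lay above neg 1, and the log2 fold change of nipple against neg was -1.35 ± 1.11 (SE) with an FDR of 1, and -0.70 without neg 2. Tgfb3 was at 13.9 and 4.4 CPM (neg), 2.53 and 19 (TEB) and 5.35 and 7.58 (nipple), and its highest and its lowest library were both TEB. Tgfb2 and Tgfb3 share exon sequence with genes on the other strand, and reads were counted without strand. Such exons on the other strand were found for 15 of the 55 members.

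The endothelial marker sum moved with Tgfb1 and with several genes below, being higher in each neg library than in any other, and its part in these differences was not tested. Lrrc32, which encodes GARP, a cell-surface anchor of latent TGF-beta, was likewise higher in both neg libraries than in any other, at 242 and 24.8 CPM (neg), 2.22 and 2.25 (TEB) and 13.2 and 11.2 (nipple). Its unadjusted edgeR p was 0.00135 for TEB against neg and its FDR 0.803. The order within the neg libraries differed between these genes. Lrrc32 and the endothelial sum were higher in neg 1, and Tgfb1 was higher in neg 2.

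**Figure D2:**
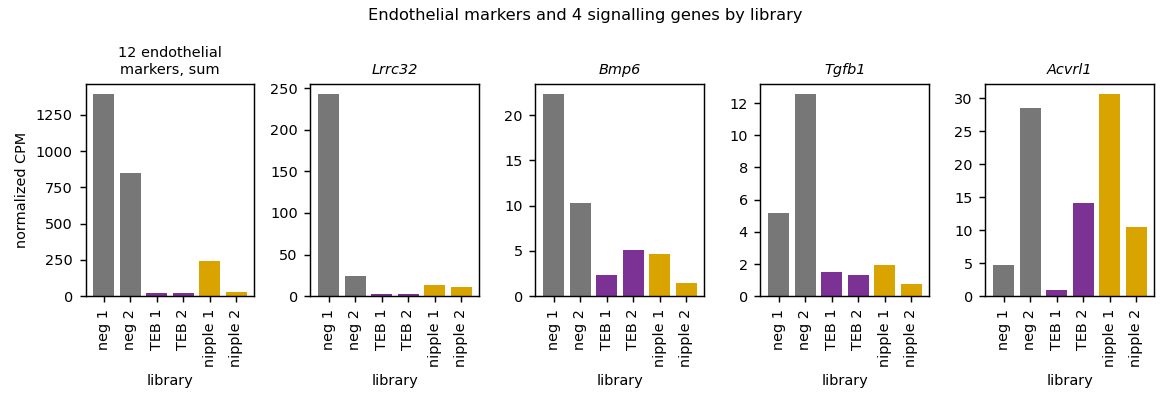
Normalized CPM in each library (bars, from 0) of the sum of 12 endothelial markers and of Lrrc32, Bmp6, Tgfb1 and Acvrl1. The marker sum, Lrrc32, Bmp6 and Tgfb1 are higher in both neg libraries than in the others, whereas Acvrl1 is highest in nipple 1 and lowest in TEB 1.

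The latent TGF-beta binding proteins tether latent ligand to the matrix. Ltbp1 was at 12.8 and 30.9 CPM (neg), 29.7 and 19.1 (TEB) and 6.83 and 10.3 (nipple). Both nipple libraries were below the 4 others, and the log2 fold change was -1.35 ± 0.85 (SE) for nipple against neg and 1.51 ± 0.86 for TEB against nipple, each with an FDR of 1 by edgeR. Without neg 2 the former was -0.58. Ltbp2 ran the other way, at 13 and 60.1 CPM (neg), 2.92 and 72.7 (TEB) and 146 and 106 (nipple). Both nipple libraries exceeded all others, and TEB 1 had 75 reads. Ltbp2 had a log2 fold change of 1.78 ± 1.33 (SE) for nipple against neg and -1.74 ± 1.33 for TEB against nipple, and the former was 0.93 without neg 1 and the latter -0.73 without TEB 1. Ltbp3 was at 252 and 35.3 CPM (neg), 153 and 138 (TEB) and 193 and 90.8 (nipple). Its group means of 144 ± 153 (SD, n = 2), 145 ± 10.7 and 142 ± 72.2 CPM were alike and neg held both the highest and the lowest library. Ltbp4 was at 97.7 and 45.7 CPM (neg), 19.3 and 103 (TEB) and 60.4 and 48.4 (nipple), with overlap in every comparison. The furin protease that cleaves the ligand precursors, Furin, was at 103 and 42.4 CPM (neg), 47.2 and 84.2 (TEB) and 83.9 and 52.9 (nipple), and also overlapped.

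All 5 tested BMP ligands had a log2 fold change below 0 for TEB against neg, with a median of -2.12 beside 0.03 over all tested genes. For nipple against neg 4 of 5 were below 0, with a median of -2.40 beside -0.003. Over all 17268 tested genes, 8451 were below 0 for TEB against neg and 8661 for nipple against neg. edgeR called 0 of the BMP ligands in any comparison. For nipple against neg, 1 had an unadjusted edgeR p under 0.05 (with 3.55% of all tested genes). DESeq2 on the 4 compared libraries called 1 there (with 2% of all genes with an FDR), and in the other comparisons 0 passed either. Bmp2 (chr2:133552159-133562885) had 351 and 153 reads (neg), 14 and 0 (TEB) and 105 and 59 (nipple), or 7.55 and 5.18 CPM (neg), 0.546 and 0 (TEB) and 5.16 and 2.78 (nipple). The TEB libraries were below all others. The lowest neg and the highest nipple library were almost level. The log2 fold change was -4.53 ± 2.16 (SE) for TEB against neg with an FDR of 0.848, and -3.85 ± 2.10 for TEB against nipple with an FDR of 1, both by edgeR. DESeq2 gave FDRs of 0.195 and 0.322 on the 4 compared libraries, and on all 6 it called Bmp2 for TEB against neg at 0.0665. Bmp4 (chr14:46383520-46390669), a ligand of the early mammary bud, had 58 and 386 reads (neg), 78 and 192 (TEB) and 21 and 0 (nipple). Its nipple libraries were below all others, with log2 fold changes of -3.79 ± 2.25 (SE) against neg and 3.21 ± 2.20 for TEB against nipple, at FDRs of 1 and 1 by edgeR. Without neg 2, which held 386 of the neg reads against 58 in neg 1, the former was -1.26.

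Bmp3 (chr5:98854415-98884396), which antagonizes other BMPs, had 131 and 856 reads (neg), 109 and 31 (TEB) and 1 and 14 (nipple). The nipple libraries were again below all others. For nipple against neg the log2 fold change was -5.47 ± 2.01 (SE), with an unadjusted p of 0.0271 and an FDR of 1 by edgeR and an FDR of 0.0262 by DESeq2, the single member DESeq2 called in that comparison. The call was lost without neg 2 (DESeq2 FDR 0.272), without nipple 1 (0.692) and without nipple 2 (0.114), and the edgeR log2 fold change was -2.97 without neg 2. On all 6 libraries DESeq2 called Bmp3 as well, at an FDR of 0.0253. Bmp6 (chr13:38345107-38500302), which endothelial cells are known to make, was at 22.3 and 10.3 CPM (neg), 2.34 and 5.14 (TEB) and 4.67 and 1.51 (nipple). Bmp6 shares exon sequence with Txndc5 on the other strand, and reads were counted without strand. Both neg libraries exceeded the 4 others. The endothelial marker sum was also higher in both neg libraries than in the others, the order of the 4 others differed, and its part was not tested. edgeR gave a log2 fold change of -2.12 ± 1.24 (SE) for TEB and -2.40 ± 1.26 for nipple against neg, at FDRs of 0.94 and 1.

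Bmp7 was the most abundant tested BMP ligand per kilobase of exon in each group, at 7.81 (neg), 5.72 (TEB) and 9.99 (nipple) CPM per kilobase, and its level was 48 and 14.8 CPM (neg), 14.8 and 31.1 (TEB) and 42.4 and 37.9 (nipple). Its fold changes stayed within 1 on the log2 scale, and TEB lay below nipple without overlap. Bmp8a had 65 reads in neg 1 and 1 read in nipple 2, and Bmp8b had at most 8 reads in any library. Bmp5, Bmp10 and Bmp15 had 0 reads in all 6 libraries. Bmp1, which despite its name is a procollagen C-proteinase and cleaves chordin, was at 106 and 12.8 CPM (neg), 38.8 and 79.9 (TEB) and 65.8 and 43 (nipple), with group means between 54.4 and 59.3 CPM.

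Of the activin and inhibin subunits, Inhba (chr13:16011851-16031621), which encodes the activin A chain, was highest in the TEB libraries, with 268 and 2 reads (neg), 363 and 499 (TEB) and 88 and 29 (nipple). Both TEB libraries exceeded all others. The mean was 15.6 ± 2 CPM (SD, n = 2) in TEB, 2.92 ± 4.03 in neg and 2.84 ± 2.09 in nipple. The log2 fold change was 2.41 ± 1.79 (SE, edgeR FDR 1) against neg and 2.45 ± 1.80 (FDR 1) against nipple, and the former was 7.62 without neg 1 and 1.43 without neg 2, the neg libraries holding 268 and 2 reads. Inhbb, the activin B chain, had 388 and 29 reads (neg), 48 and 0 (TEB) and 39 and 5 (nipple), with overlap in every comparison. Inha, the inhibin α chain, was at 13.8 and 4.27 CPM (neg), 7.13 and 17.6 (TEB) and 9.28 and 8.85 (nipple), also with overlap. Inhbc and Inhbe had 0 reads in every library.

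Bmpr1b, a BMP type I receptor, had the smallest unadjusted edgeR p of any member in any comparison. It had 1 and 0 reads (neg), 374 and 131 (TEB) and 16 and 17 (nipple), which is 14.6 and 4.46 CPM in TEB and 0.786 and 0.8 CPM in nipple. The 3 groups did not overlap, with TEB highest, nipple between and neg at or near 0. Over pooled reads of each group, TEB exceeded neg by a ratio of 698 (95% exact interval 125 to 27600) and nipple exceeded neg by 60.3 (10.1 to 2450), from a single neg read. These intervals cover counting error and leave out the spread between libraries. The fitted log2 fold change was 9.18 ± 2.23 (SE) for TEB against neg, with an unadjusted p of 0.00342 and an FDR of 0.803 by edgeR, and an FDR of 0.000447 by DESeq2. For nipple against neg it was 5.6 ± 1.95, with an unadjusted p of 0.0207 and an FDR of 1 by edgeR, and DESeq2 gave no FDR on the 4 compared libraries and 0.0845, a call, on all 6. For TEB against nipple it was 3.58 ± 1.70, with an unadjusted p of 0.0691 and an FDR of 1 by edgeR and an FDR of 0.0308 by DESeq2. The DESeq2 call against neg was lost without TEB 1, at an FDR of 0.171, and that against nipple was lost without TEB 1 at 0.226, without nipple 1 at 0.69 and without nipple 2 at 0.67. On all 6 libraries the DESeq2 FDR was 3.13e-05 for TEB against neg and 0.153 for TEB against nipple, so that only the former was called. Bmpr1b had next to no neg reads although both neg libraries were the deepest of the series. The basal marker sum was also higher in the 4 Gpr125+ libraries than in neg, though TEB 1 was at 4020 CPM against 3550 in neg 2. Of its 12 markers, 10 had a log2 fold change above 0 for TEB against neg and 2, Krt5 and Trp63, below. For nipple against neg, 11 were above 0 and 1 below. The part of basal cells in the Bmpr1b difference was not tested.

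Bmpr1a, the other BMP type I receptor of this subfamily, was at 22.9 and 122 CPM (neg), 185 and 36.9 (TEB) and 104 and 186 (nipple). All comparisons overlapped, and the replicates of each group lay far apart, with neg 2, TEB 1 and nipple 2 the higher ones. As shares of the summed level per kilobase of exon of the 4 BMP type I receptors, Bmpr1b made up 0.048% and 0% in neg, 6.32% and 4.78% in TEB and 0.42% and 0.351% in nipple. Bmpr1a made up between 37.2% and 76.6% of that sum in each library. Acvr1, which encodes ALK2, was at 13.6 and 34.2 CPM (neg), 33.2 and 27.9 (TEB) and 36.7 and 30.6 (nipple), the most even of the 4 across libraries. Acvrl1, which encodes ALK1 and is known from endothelium, was at 4.67 and 28.5 CPM (neg), 1.01 and 14.2 (TEB) and 30.6 and 10.5 (nipple). Acvrl1 was highest in nipple 1, which had the highest endothelial marker sum of the Gpr125+ libraries at 241 CPM, and TEB 1 was lowest in both. Neg 1, with the highest marker sum of all at 1390 CPM, had 217 Acvrl1 reads. The part of endothelial cells in the Acvrl1 levels was not tested.

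**Figure D3:**
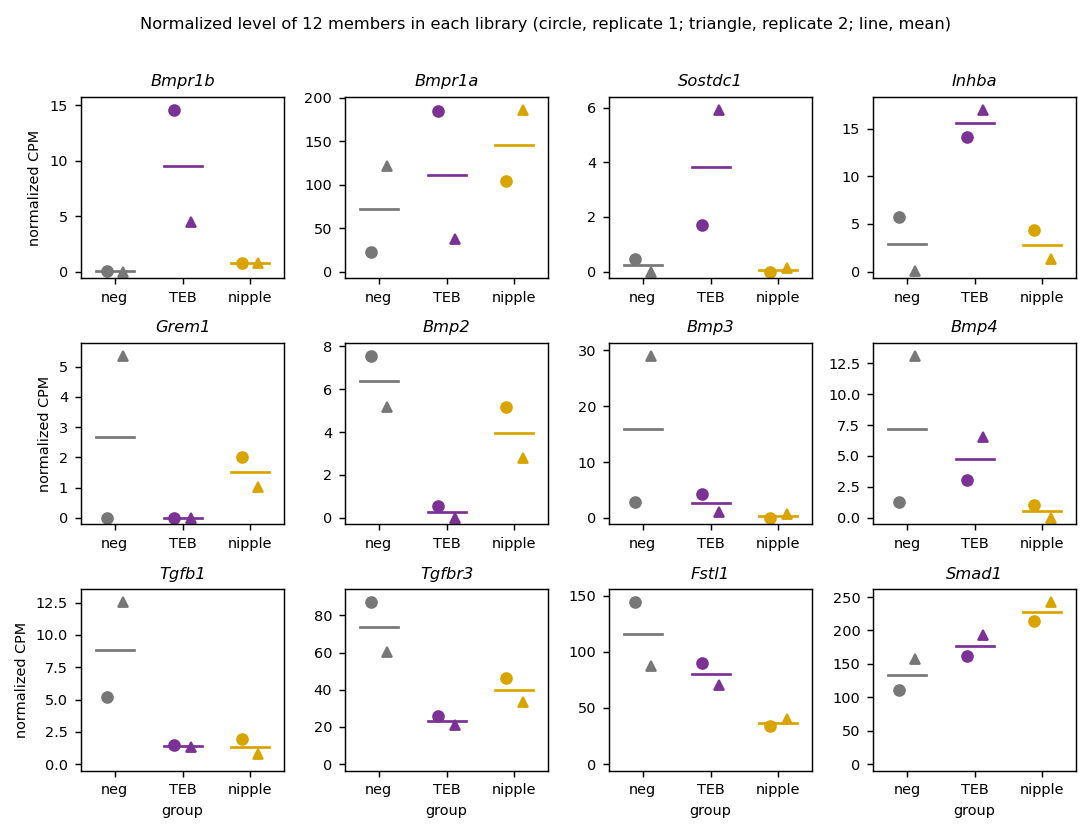
Normalized CPM of 12 members in each library (circles, replicate 1; triangles, replicate 2) with the mean of each group as a line, on linear axes from 0. Bmpr1b, Sostdc1 and Inhba are highest in both TEB libraries, Bmp2 and Grem1 are lowest there, and Smad1 is lowest in neg and highest in nipple without overlap.

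The TGF-beta and activin type I receptors showed no separation of groups. Tgfbr1 was at 10 and 46.8 CPM (neg), 42.5 and 20.1 (TEB) and 24.5 and 62.7 (nipple), and Acvr1b, the activin receptor ALK4, at 10.3 and 6.03 CPM (neg), 2.38 and 20.7 (TEB) and 19.7 and 8.8 (nipple). Acvr1c had 4 reads in nipple 1 and 0 elsewhere. The 4 type II receptors also overlapped in every comparison. Tgfbr2, at 118 and 84.4 CPM (neg), 121 and 61 (TEB) and 117 and 164 (nipple), was the most abundant per kilobase of exon, with group means of 12.3, 11.1 and 17.1 CPM per kilobase. Bmpr2 was at 9.32 and 91.2 CPM (neg), 102 and 24.4 (TEB) and 38.6 and 79.3 (nipple) and Acvr2a at 9.02 and 73.4 CPM (neg), 37.2 and 8.38 (TEB) and 27.3 and 63.3 (nipple). Like Bmpr1a and Tgfbr1, both were higher in neg 2, TEB 1 and nipple 2 than in the other library of the same group. Acvr2b was at 8.73 and 0 CPM (neg), 3.24 and 10.5 (TEB) and 4.42 and 5.04 (nipple).

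Tgfbr3 (chr5:107106570-107289629), the co-receptor betaglycan, which presents TGF-beta2 and binds inhibin, was highest in neg and lowest in TEB. It was at 87 and 60.5 CPM (neg), 26.1 and 20.8 (TEB) and 46.1 and 33.6 (nipple), and the 3 groups did not overlap. For TEB against neg the log2 fold change was -1.66 ± 0.65 (SE), with an unadjusted p of 0.0341 and an FDR of 0.803 by edgeR, and it lay between -1.90 and -1.5 with any library left out. This range was the narrowest among the members with an unadjusted p under 0.05. For nipple against neg the groups also did not overlap, with a fold change within 1 on the log2 scale. The endothelial marker sum was higher in neg as well, and its part was not tested.

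**Figure D4:**
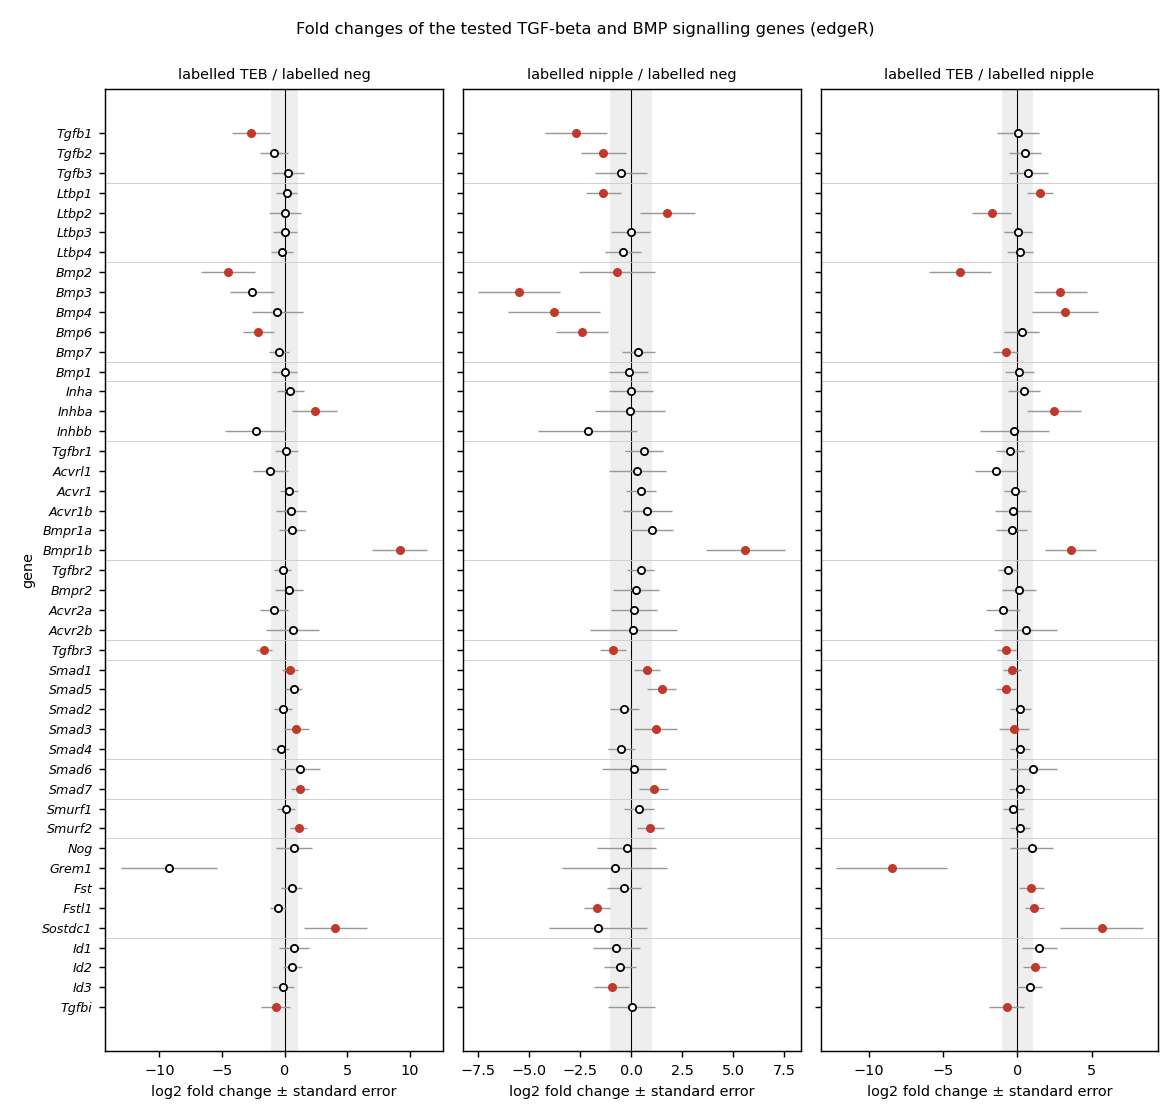
Fitted log2 fold changes (points) with standard errors (bars) of the 45 tested members in the 3 comparisons. Filled points mark groups whose libraries do not overlap, the grey band marks changes within 1 on the log2 scale, and fitted values of Bmpr1b against neg and of Grem1 rest on groups at or near 0 reads.

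Of the receptor-regulated and common SMADs, 5 of 6 had reads in all 6 libraries. Smad1, a BMP mediator (chr8:79338395-79399518), was at 111 and 157 CPM (neg), 161 and 194 (TEB) and 215 and 242 (nipple), so that all neg libraries lay below all TEB libraries and these below all nipple libraries. The steps were small, since each fold change stayed within 1 on the log2 scale. Per kilobase of exon Smad1 ranked highest of the 45 tested members in nipple and Smad4 in neg, and Id2 ranked highest in TEB. Smad1 made up 78.7% to 92% of the summed level of Smad1, Smad5 and Smad9 per kilobase of exon in a library. Smad5 was at 32.3 and 16.2 CPM (neg), 50.1 and 30.6 (TEB) and 60 and 76.6 (nipple), with nipple above all others. Smad5 had a log2 fold change for nipple against neg of 1.49 ± 0.70 (SE), with an unadjusted p of 0.0641 and an FDR of 1 by edgeR. Smad9 had 13 reads in nipple 2 and 0 in the 5 other libraries.

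Among the mediators of TGF-beta and activin, Smad3 was at 25 and 2.64 CPM (neg), 25.8 and 27.8 (TEB) and 28.9 and 34.7 (nipple). The neg libraries were far apart, and neg 2, with 78 reads, was below all others. The log2 fold change for nipple against neg was 1.20 ± 1.03 (SE), and was 0.35 without neg 2. Smad2 was at 60.6 and 134 CPM (neg), 114 and 62.6 (TEB) and 60.4 and 95.4 (nipple) and the common mediator Smad4 at 84.6 and 162 CPM (neg), 124 and 74.6 (TEB) and 87.5 and 90.1 (nipple), with overlap in every comparison. The inhibitory SMAD of both branches, Smad7, was higher in the Gpr125+ libraries, at 22.3 and 24.5 CPM (neg), 34.1 and 77.1 (TEB) and 65.3 and 35.5 (nipple). Its log2 fold change was 1.25 ± 0.72 (SE, edgeR FDR 0.927) for TEB and 1.11 ± 0.71 (FDR 1) for nipple against neg, and each fell below 1 when a library of the Gpr125+ group was left out, to 0.54 without TEB 2 and 0.60 without nipple 1. Smad6, which limits BMP signalling, was at 3.89 and 3.12 CPM (neg), 0.663 and 15.5 (TEB) and 2.95 and 4.8 (nipple), where TEB 1 was the lowest and TEB 2 the highest library. The ligase Smurf2, which marks receptors and SMADs for degradation, was at 40.3 and 81.6 CPM (neg), 164 and 103 (TEB) and 114 and 121 (nipple), above neg in all 4 Gpr125+ libraries. Its log2 fold change was 1.13 ± 0.68 (SE, edgeR FDR 0.944) for TEB against neg, and 0.57 without neg 1. Smurf1 was at 114 and 60.3 CPM (neg), 50.9 and 138 (TEB) and 121 and 106 (nipple), with overlap.

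Of the 5 tested extracellular antagonists, 4 did not overlap between TEB and nipple, with 33.5% of all tested genes doing so. Of these antagonists, 3 were higher in TEB and 1 was lower. The BMP ligands were alike with 4 of 5 tested, and the receptor-regulated and common SMADs had 3 of 5. Of the 6 tested type I receptors it was 1, and of the 4 type II receptors 0. In each comparison with neg, 1 of the 5 antagonists did not overlap. Sostdc1 (chr12:36314139-36318452), also known as ectodin, which binds BMPs and modulates Wnt signalling in skin appendages, had 21 and 0 reads (neg), 44 and 174 (TEB) and 0 and 3 (nipple). Both TEB libraries exceeded all others. Over pooled reads, TEB exceeded nipple by a ratio of 54.9 (95% exact interval 18.6 to 269, counting error only). The fitted log2 fold change of TEB against nipple was 5.67 ± 2.78 (SE), with an unadjusted p of 0.0771 and an FDR of 1 by edgeR and an FDR of 0.0367 by DESeq2. The DESeq2 call was lost without TEB 2 (FDR 0.255), without nipple 1 (0.751) and without nipple 2 (0.245), and on all 6 libraries the FDR was 0.354. Against neg the log2 fold change of TEB was 4.03 ± 2.52 (SE) with an FDR of 0.978 by edgeR.

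Grem1 (chr2:113746164-113758646), gremlin, which binds BMP2, BMP4 and BMP7, had 0 and 158 reads (neg), 0 and 0 (TEB) and 41 and 22 (nipple). It was at 0 in both TEB libraries and in neg 1. Taking 3 reads in each library as the floor, TEB was at least 13.9-fold lower than nipple. Against neg the corresponding bound was at least 24.4-fold lower, but all neg reads came from neg 2. By edgeR the unadjusted p was 0.06 (FDR 1) for TEB against nipple and 0.048 (FDR 0.821) for TEB against neg, and by DESeq2 the FDR was 0.0852 and 0.119, so that it called Grem1 for TEB against nipple. On all 6 libraries DESeq2 gave 0.366 for TEB against nipple and 0.0615 for TEB against neg, and called the latter in place of the former. On the compared libraries DESeq2 gave Grem1 no FDR for TEB against nipple without either nipple library. The sum of 8 pericyte markers ranged from 10.7 to 56.6 CPM in neg, 10.6 to 28.3 in TEB and 13.8 to 37.2 in nipple, overlapping in every comparison. Of the 5 pericyte markers tested, 3 had a log2 fold change above 0 for TEB against nipple and 2 below. Rgs5 was at 0 in TEB and neg 1, as Grem1 was, while Mcam and Notch3 had reads in all 6 libraries, and the part of pericytes in the Grem1 difference was not tested.

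Fstl1 (chr16:37776873-37836514), a secreted glycoprotein of the follistatin family, was at 144 and 87.2 CPM (neg), 89.8 and 70.1 (TEB) and 33.5 and 39.9 (nipple). Both nipple libraries were below all others. For nipple against neg the log2 fold change was -1.66 ± 0.64 (SE), with an unadjusted p of 0.0332 and an FDR of 1 by edgeR, and for TEB against nipple 1.12 ± 0.64 with an unadjusted p of 0.115. With any library left out the former stayed between -1.97 and -1.39. The sum of 10 fibroblast markers was 57.1 and 169 CPM in neg, 157 and 310 in TEB and 129 and 78.9 in nipple. Of this, Dcn alone made up 122 CPM in neg 2. All 9 tested markers had a log2 fold change above 0 for TEB against neg and for TEB against nipple. For nipple against neg, 3 were above 0 and 6 below. In TEB against nipple 6 did not overlap. There, 9 members were also higher without overlap, Fstl1, Inhba, Sostdc1, Ltbp1, Fst and Bmp4 among them, and 9 were lower. The part of fibroblasts in these differences, and in that of Fstl1 against neg, was not tested. The methods of the study list an antibody to CD140a, the product of the fibroblast marker Pdgfra, with the same biotin label as those to CD31, CD45 and Ter119, while the series description names CD31, CD45 and Ter119 alone for the cells removed. Pdgfra was at 2.65 and 0.0339 CPM (neg), 6.75 and 4.12 (TEB) and 0.0491 and 0.8 (nipple). Fst, follistatin, the activin antagonist, was at 18.3 and 89.4 CPM (neg), 69.8 and 90.8 (TEB) and 34.4 and 50.3 (nipple), with TEB above nipple by less than 1 on the log2 scale. Nog, noggin, was at 1.25 and 9.28 CPM (neg), 3.7 and 13.9 (TEB) and 6.29 and 2.78 (nipple), with overlap in every comparison. Chrd, chordin, had 1 read in TEB 2 and 1 in nipple 1.

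Of the 4 target genes, 1 did not overlap for TEB against neg (Tgfbi, with 24% of all tested genes), 1 for nipple against neg (Id3, with 30.6%) and 2 for TEB against nipple (Id2 and Tgfbi, with 33.5%). Id1 was at 5.27 and 13.3 CPM (neg), 5.11 and 26.2 (TEB) and 4.12 and 7.16 (nipple), Id2 at 39.9 and 118 CPM (neg), 171 and 71.3 (TEB) and 55 and 53.9 (nipple) and Id3 at 37.2 and 42.6 CPM (neg), 16.2 and 57 (TEB) and 29.9 and 11.6 (nipple). The summed level of these inhibitors of basic helix-loop-helix factors was 82.4 and 174 CPM in neg, 193 and 154 in TEB and 89.1 and 72.6 in nipple. Both TEB sums lay above both nipple sums, and the neg sums overlapped with each. For Id2 the libraries of TEB and nipple did not overlap, with a log2 fold change of 1.16 ± 0.78 (SE) and an FDR of 1 by edgeR, and the fold change was 0.45 without TEB 1. Tgfbi, a matrix protein named for its induction by TGF-beta, was at 6.95 and 7.42 CPM (neg), 4.91 and 3.95 (TEB) and 9.43 and 5.18 (nipple), and its fold changes stayed within 1 on the log2 scale.

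Other genes of the pathway were followed from a list of 66, of which 49 were tested. edgeR called 0 of these in each comparison. At an unadjusted p under 0.05, 4 were higher and 2 lower for TEB against neg (with 6.05% of all tested genes passing), 4 higher and 2 lower for nipple against neg (3.55%), and 0 higher and 2 lower for TEB against nipple (2.21%). DESeq2 on the compared libraries called 4, 2 and 0 of them, beside 4.33%, 2% and 2.26% of all genes with an FDR. The genes that passed were extracellular regulators, targets and a ligand. Itgb6, a chain of the αvβ6 integrin that frees TGF-beta1 from its latent form, had 0 and 0 reads (neg), 90 and 15 (TEB) and 19 and 21 (nipple), an unadjusted p of 0.0128 by edgeR for TEB against neg and an FDR of 0.0439 by DESeq2. It had 0 reads in both neg libraries and some in all 4 Gpr125+ libraries, a pattern no other gene of the list had. Fbn1, fibrillin-1, to which latent binding proteins attach, had 32 and 0 reads (neg), 97 and 560 (TEB) and 308 and 129 (nipple), and Tll1, a protease of the Bmp1 family, had 2 and 0 reads (neg), 2 and 67 (TEB) and 66 and 44 (nipple). Dlx3, a homeobox target of BMP signalling, had 17 and 0 reads (neg), 364 and 459 (TEB) and 116 and 59 (nipple), with an unadjusted p of 0.0147 for TEB against neg by edgeR and an FDR of 0.00832 by DESeq2. Gdf5, a BMP-like ligand that prefers Bmpr1b, had 0 and 0 reads (neg), 79 and 0 (TEB) and 24 and 8 (nipple). Lower in the Gpr125+ libraries beside Lrrc32 was Gata2, a factor of endothelial and blood cells, with 1390 and 65 reads (neg), 0 and 0 (TEB) and 14 and 11 (nipple) and an unadjusted p of 0.00324 for TEB against neg by edgeR. The endothelial marker sum moved with both, and its part was not tested.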

How the data were processed

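RNA of 6 sorted-cell samples was amplified with SMART-Seq HT and sequenced. The authors aligned reads to mm10 with STAR (version 2.7.3 in the submitters' notes, which also name CASAVA), counted them per gene without strand and deposited raw read counts without normalization. The annotation release is not given in the sources used here. A robust quasi-likelihood model of all 6 libraries was fitted to them with edgeR 4.0.16 (R 4.3.3), after filterByExpr and TMM scaling, with a prior count of 2 for log2 CPM. DESeq2 1.42.0 on the 4 compared libraries was the main alternative. A call required an FDR (Benjamini-Hochberg) under 0.1 together with a 2-fold change. The biological coefficient of variation was 0.967. Standard errors of the edgeR fold changes, in text and figure, were derived by dividing the absolute log2 fold change by the square root of its F statistic. The labels give a pool of mice for each sample and do not say whether samples shared mice. The p-values treat the libraries as independent and measure the spread between them. Other alternatives were other scalings, filters, thresholds, a replicate block and leaving out each library. DESeq2 with a library left out was added after seeing the data. Scripts were tested on simulated data.

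The members, lists and tests were chosen with earlier results of these data known. Named members were a set chosen by symbol plus any member with an unadjusted edgeR p under 0.05 or a DESeq2 call. Fold changes were followed through the alternatives for 33 gene and comparison pairs that passed either or did not overlap with a change of at least 2-fold. They are printed except for Grem1 and for Bmp3 in TEB against nipple. Reads are printed for members with few counts, CPM for the rest. Coordinates are from GENCODE M21, in which all 55 members were found, and promoter sequences from RefSeq.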

Additional observations from a re-analysis of the deposited data

How the results depend on the processing

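The count of members called depended on the tool. Against 0 by edgeR, DESeq2 on all 6 libraries called 3 members for TEB against neg, 2 for nipple against neg and 0 for TEB against nipple, and on the 4 compared libraries 1, 1 and 3. Over all genes, in the same order of comparisons, DESeq2 called 943, 321 and 133 on all 6 libraries and 682, 317 and 357 on 4, and edgeR without a filter on low counts called 137, 58 and 39. Members with an unadjusted p under 0.05 numbered 7, 6 and 5 with DESeq2 on all 6 libraries, 5, 6 and 7 with DESeq2 on 4, 1, 3 and 5 with edgeR on 4, and 3, 3 and 3 without the filter, against 3, 3 and 0 in the reported fit. The causes were not tested. Deviations of same-numbered libraries from their group means correlated across genes at -0.0347 for TEB and neg, 0.194 for nipple and neg and -0.00495 for TEB and nipple. With 2 libraries in each group, these values cannot decide whether the replicate numbers pair the libraries. With the replicate block as a term, members with an unadjusted p under 0.05 were 1, 2 and 0, and 0 members and 0 genes were called. With 1 library left out in edgeR, genes called ranged from 0 to 747, 0 to 335 and 0 to 12, members called from 0 to 4 and at 0 in the other comparisons, and members with an unadjusted p under 0.05 from 2 to 10, 1 to 9 and 1 to 6. The highest counts against neg came without neg 1 (747 genes and 4 members for TEB, 335 genes for nipple). The member median log2 fold change ranged from -0.44 to 0.23, -0.37 to 0.07 and -0.30 to 0.38, and its sign turned without neg 1, TEB 1 or TEB 2 for TEB against neg, without neg 2 for nipple against neg and without TEB 2 for TEB against nipple. DESeq2 with a compared library left out called 1 to 7, 0 to 13 and 0 to 9 members. The fold changes of the 33 followed pairs kept their direction in all 13 to 15 alternatives each. These pairs were chosen for their differences in the same data. Where groups do not overlap, leaving out a library can hardly turn the direction, so this result was largely fixed by the choice. Scaling by DESeq2 size factors or by total counts left the non-overlapping members at 12 and 12, 18 and 17, and 16 and 17. With 3 reads at 0.0645 to 0.147 CPM, depth did not resolve the levels of Chrd, Smad9, Acvr1c or Bmp8b, and with 2 libraries a group the spread between replicates limits the rest.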

Other observations

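In each group one library had the larger share of mitochondrial reads, namely neg 2 (2.82%, against 0.301% in neg 1), TEB 1 (3.15%, against 0.761%) and nipple 2 (2.43%, against 1.35%). Of the 45 tested members, 9 were higher in that library in all 3 groups (20%, with 16.8% of all tested genes) and 8 were lower in all 3 (17.8%, with 19.4%). The 9 were the receptors Bmpr1a, Bmpr2, Acvr2a and Tgfbr1, the mediators Smad2 and Smad4, the ligase Smurf2, and Bmp3 and Ltbp1. The 8 were Acvr1b, Bmp1, Bmp6, Bmp7, Inha, Inhba, Ltbp4 and Smurf1. The shares were near those of all genes, and whether the mitochondrial share and these levels are linked was not tested.

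Gdf15, a divergent and stress-responsive member of the ligand family, had the highest level of the ligands followed, per kilobase of exon too, at 1610.0 and 701 CPM (neg), 139 and 909 (TEB) and 287 and 632 (nipple). Both nipple libraries were below both neg libraries (30.6% of all tested genes did not overlap in that comparison), and the other comparisons overlapped. Hey1, a target of BMP9 and Notch signalling, was at 10.2 and 14.6 CPM (neg), 4.37 and 4.15 (TEB) and 13.7 and 15.2 (nipple), with both TEB libraries below all others. Lefty1, an antagonist of Nodal, had 0 and 155 reads (neg), 3 and 0 (TEB) and 30 and 30 (nipple), so that neg 2 held most reads, as it did for Grem1.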
